A study of Mus musculus with 6 samples.

Results

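The genes described here encode the enzymes that make prostaglandins, among them the targets of acetaminophen (APAP) and ibuprofen (IBU), and the main enzyme that breaks prostaglandins down. The symbols were taken by name and matched to their Ensembl identifiers, which gave 10 of the 48709 genes in the count table: Ptgs1, Ptgs2, Ptges, Ptges2, Ptges3, Ptgds, Hpgds, Ptgis, Tbxas1 and Hpgd. The rule that names them uses no measured value, although they were proposed with earlier results of these data known. All 10 passed the filter on low counts and were tested.

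Prostaglandins are made from arachidonic acid, which phospholipases free from membranes. The cyclooxygenases PTGS1 (COX-1) and PTGS2 (COX-2) turn it into the shared intermediate prostaglandin H2, and terminal synthases then make prostaglandin E2, prostaglandin D2, prostacyclin or thromboxane from that intermediate. HPGD, 15-hydroxyprostaglandin dehydrogenase, inactivates several of the products. Ibuprofen blocks both cyclooxygenases by occupying their active site, and acetaminophen lowers their activity by another route, so both drugs act on the enzymes and not directly on the level of their mRNA. In the fetal gonad, prostaglandin D2 is best known as a signal of Sertoli cell differentiation in the testis.

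The study asked how exposure of pregnant CD1 mice to both analgesics during sex determination affects the ovaries of their embryos. The 3 APAP+IBU libraries came from embryos whose dams had been gavaged with APAP at 30 mg/kg per day and IBU at 15 mg/kg per day from 10.5 to 13.5 days post coitum (dpc). The 3 control libraries came from embryos of dams given the ethanol diluent over the same days. Each library was made from the polyadenylated RNA of its own pool of whole 13.5 dpc female gonads, so a value is an average over several embryos and over every cell type of the organ. In such bulk RNA, fewer cells of a type and less RNA per cell cannot be told apart. Sample titles of this group mention IBU only, whereas the label for the exposure gives APAP and IBU.

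The libraries held 37811968 to 48954631 counts. Levels are counts per 1000000 counts of the library (CPM) scaled by the TMM method, which corrects for differences in library make-up. The germ cell genes Ddx4 (191 to 268 CPM) and Dazl (368 to 592 CPM) and the ovarian gene Wnt4 (106 to 203 CPM) were present in every library, and Foxl2 of pregranulosa cells ranged from 0.944 to 8.16 CPM. Replicate 3 of each group stood apart, with a summed level of 14 liver genes of 2070 CPM in the control and 3364 CPM in the APAP+IBU library. The other 4 libraries had 191 to 554 CPM of them. A list of 12 spermatid and sperm genes, which a fetal ovary should lack, summed to 41.8 to 148 CPM in the controls and 2.93 to 6.29 CPM in the APAP+IBU libraries. The fold change of each of the 10 genes is therefore given with all 6 libraries and again with the 4 libraries of replicates 1 and 2.

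The 2 cyclooxygenase genes are set beside each other because they are the drug targets and differ in level, and Ptgds because it had the largest fold change of the 10 genes. The stretches run from 250 bases before the start of the transcript to 30 bases after it, 5′ to 3′ on the gene's strand, from RefSeq on GRCm38.p6 (mm10). They lie at chr2:36230176-36230455 on the plus strand for Ptgs1, chr1:150099781-150100060 on the plus strand for Ptgs2 and chr2:25469720-25469999 on the minus strand for Ptgds. Capitals mark matches, on either strand, to 6 motifs searched. Near the start of many genes lie the TATA box, searched as TATAAA, and the CCAAT box, searched by the letters of its name. The GC box, bound by SP factors, was searched as GGGCGG. Basic helix-loop-helix factors bind the E-box, which was searched as CACGTG. The core of the cyclic AMP response element was searched as CGTCA. The site of AP-1, the factor made of FOS and JUN proteins, was searched as TGACTCA.
Ptgs1: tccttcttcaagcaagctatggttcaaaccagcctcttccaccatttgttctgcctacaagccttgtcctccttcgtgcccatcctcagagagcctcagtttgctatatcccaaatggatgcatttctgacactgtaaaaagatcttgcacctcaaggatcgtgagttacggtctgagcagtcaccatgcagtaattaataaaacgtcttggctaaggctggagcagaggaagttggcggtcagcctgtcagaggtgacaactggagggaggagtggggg
Ptgs2: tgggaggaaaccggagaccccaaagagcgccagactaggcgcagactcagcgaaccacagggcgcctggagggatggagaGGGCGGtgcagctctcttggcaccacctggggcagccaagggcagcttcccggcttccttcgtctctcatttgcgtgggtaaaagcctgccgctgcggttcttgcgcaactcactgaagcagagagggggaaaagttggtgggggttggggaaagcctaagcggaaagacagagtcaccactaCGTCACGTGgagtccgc
Ptgds: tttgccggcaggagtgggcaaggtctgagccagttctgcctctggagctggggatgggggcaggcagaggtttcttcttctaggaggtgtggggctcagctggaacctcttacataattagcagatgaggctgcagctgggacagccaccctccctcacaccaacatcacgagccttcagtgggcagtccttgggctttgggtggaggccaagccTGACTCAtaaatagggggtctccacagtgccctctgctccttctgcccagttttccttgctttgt

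The Ptgs1 stretch held none of the 6 motifs and 5 CpG dinucleotides. The Ptgs2 stretch held 16 CpG dinucleotides and a GC box that began 170 bases before the annotated start. It also held a cyclic AMP response core at base 14 of the annotated transcript that overlapped an E-box at base 17. Whether these ovaries use the annotated start was not tested. The Ptgds stretch held 2 CpG dinucleotides and an AP-1 site that began 35 bases before the start. Among 32851 mouse promoters cut to the same length, 34.7% held the GC box, 6.79% the E-box, 19.9% the cyclic AMP response core and 4.94% the AP-1 site, and the median number of CpG dinucleotides was 6. RefSeq promoters were found for 9 of the 10 genes, all but Ptgis. A match of letters describes the sequence and does not show that a factor binds there.

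Divided by the length of their exons, the mRNA levels of the 10 genes differed widely. Ptges3, which encodes the cytosolic prostaglandin E synthase and also acts as a heat shock protein co-chaperone, was highest with 105 ± 7.54 CPM per kilobase (SD, n = 6), above 98.3% of the tested genes. Ptgs2 was lowest with 0.0727 ± 0.0222 CPM per kilobase (SD, n = 6), above only 1.55% of them. Between these lay Ptgis (9.59), Ptges2 (7.99), Hpgd (4.55), Ptgs1 (3.30), Ptges (2.78), Ptgds (1.25), Hpgds (0.445) and Tbxas1 (0.231 CPM per kilobase). The ranges of 4 neighbouring pairs overlapped. Of these, Ptgis was above Ptges2 and Ptgs1 above Ptges in 5 of 6 libraries, while Hpgd was above Ptgs1 and Ptges above Ptgds in 6 of 6. The ranges of the other 5 neighbouring pairs did not overlap. With the longest transcript in place of all exons, the mean of Ptgs1 was 4.47, of Hpgds 0.734 and of Tbxas1 0.460 CPM per kilobase. That of Hpgd stayed at 4.55, and Hpgd was then no longer above Ptgs1 in every library.

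**Figure D1:**
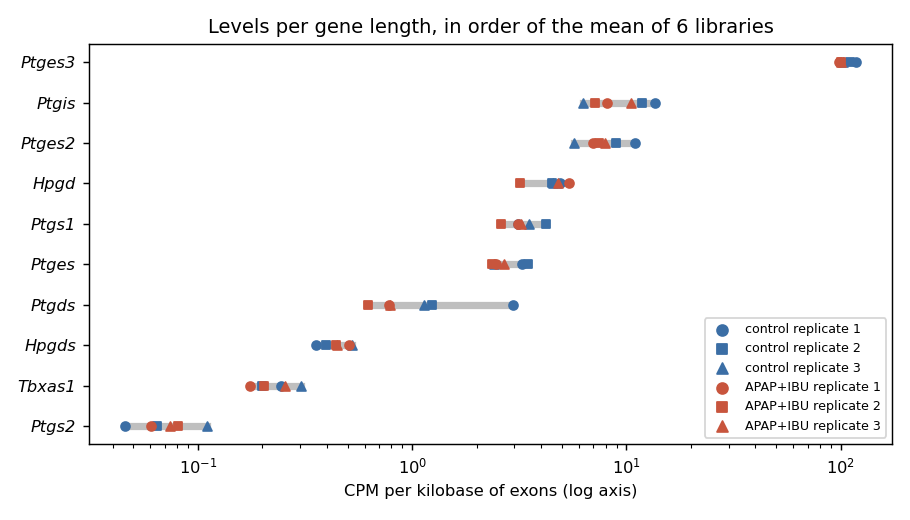
The x axis gives CPM per kilobase of exons on a log axis, and each row is a gene in order of its mean over 6 libraries. Points are libraries, coloured by group and shaped by replicate, and the grey bar spans their range. Ptges3 lay at 97.9 to 118 CPM per kilobase and Ptgs2 at 0.0458 to 0.111 CPM per kilobase, with the points of both groups close together for most genes.

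Of the cyclooxygenases, Ptgs1 had the higher mRNA level in every library, and neither gene passed the test. Ptgs1 (ENSMUSG00000047250, chr2:36230426-36252272) encodes COX-1 and had 12.1, 16.3 and 13.6 CPM in control replicates 1, 2 and 3 and 12.1, 10.1 and 12.6 CPM in APAP+IBU replicates 1, 2 and 3. Control replicate 2 was the highest library and APAP+IBU replicate 2 the lowest, and the groups overlapped. The log2 fold change (APAP+IBU over control) was -0.27 (standard error 0.18, 95% interval -0.69 to 0.15, adjusted p = 0.699) in the quasi-likelihood test of edgeR, adjusted over all tested genes by the Benjamini-Hochberg method. In replicates 1 and 2 alone it was -0.33 (standard error 0.20, adjusted p = 0.25 in edgeR).

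Ptgs2 (ENSMUSG00000032487, chr1:150100031-150108227) encodes COX-2, the form that many cells induce on stimulation. It had 8, 11 and 22 counts in the controls (0.210, 0.295 and 0.507 CPM) and 14, 17 and 13 counts in the APAP+IBU libraries (0.276, 0.371 and 0.338 CPM). The highest and the lowest library were both controls, so the groups overlapped. At this depth the counting error alone was wide, with a 95% exact Poisson interval of 3.45 to 15.8 counts around the 8 counts of control replicate 1. Its log2 fold change was -0.05 (standard error 0.45, 95% interval -1.08 to 0.98, adjusted p = 0.972 in edgeR), and with replicates 1 and 2 only it was 0.37 (standard error 0.56, adjusted p = 0.653 in edgeR). The data do not tell apart changes of Ptgs2 within the 6-library interval, which is not a limit of detection. The antisense gene Ptgs2os, which starts 68 bases away on the opposite strand, had 0 to 3 counts. Per kilobase, Ptgs1 exceeded Ptgs2 by 31.6 to 68.3 times in the 6 libraries, and by 41.6 to 89.9 times with the longest transcript.

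Among the prostaglandin E synthases, Ptges3 made up 89.2 to 92.7% of the summed level per kilobase of the 3 genes. Ptges3 (ENSMUSG00000071072, chr10:128058954-128077272) had 261, 245 and 228 CPM in the controls and 217, 223 and 223 CPM in the APAP+IBU libraries. Every APAP+IBU library lay below every control, by a small margin. Ptges3 had a log2 fold change of -0.15 (standard error 0.11, 95% interval -0.41 to 0.12, adjusted p = 0.71 in edgeR), and the two-sided exact permutation test gave p = 0.1, the smallest that 3 against 3 libraries allow. In replicates 1 and 2 the log2 difference was -0.18 (standard error 0.088, adjusted p = 0.17 in edgeR). Of its stretches of 50 bases, 19.6% also occur in the processed pseudogenes Ptges3-ps and Gm11893, so reads from them could match more than 1 gene. The effect of such reads on the Ptges3 level was not tested. Ptges3-ps had 605 to 731 counts in each library.

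Ptges2 (ENSMUSG00000026820, chr2:32395896-32405772) encodes a membrane-associated prostaglandin E synthase and had 55.5, 45.4 and 28.7 CPM in the controls and 35.2, 37.7 and 40.1 CPM in the APAP+IBU libraries. The controls held both the highest library and, in replicate 3, the lowest, so the groups overlapped. The groups differed in Ptges2 by -0.20 on the log2 scale (standard error 0.23, adjusted p = 0.777 in edgeR) with 6 libraries and -0.45 (standard error 0.12, adjusted p = 0.0366 in edgeR) with replicates 1 and 2. Without control replicate 1 the latter was -0.30 (adjusted p = 0.14 in edgeR), and without APAP+IBU replicate 1 it was -0.41 (adjusted p = 0.116 in edgeR).

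Ptges (ENSMUSG00000050737, chr2:30889471-30929863), the inducible microsomal prostaglandin E synthase that works with COX-2, had 12.8, 13.7 and 9.44 CPM in the controls and 9.72, 9.30 and 10.6 CPM in the APAP+IBU libraries. Control replicate 3 fell inside the range of the exposed libraries. The groups differed in Ptges by -0.28 on the log2 scale (standard error 0.19, adjusted p = 0.699 in edgeR) and with replicates 1 and 2 it was -0.46 (standard error 0.16, adjusted p = 0.0691 in edgeR).

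**Figure D2:**
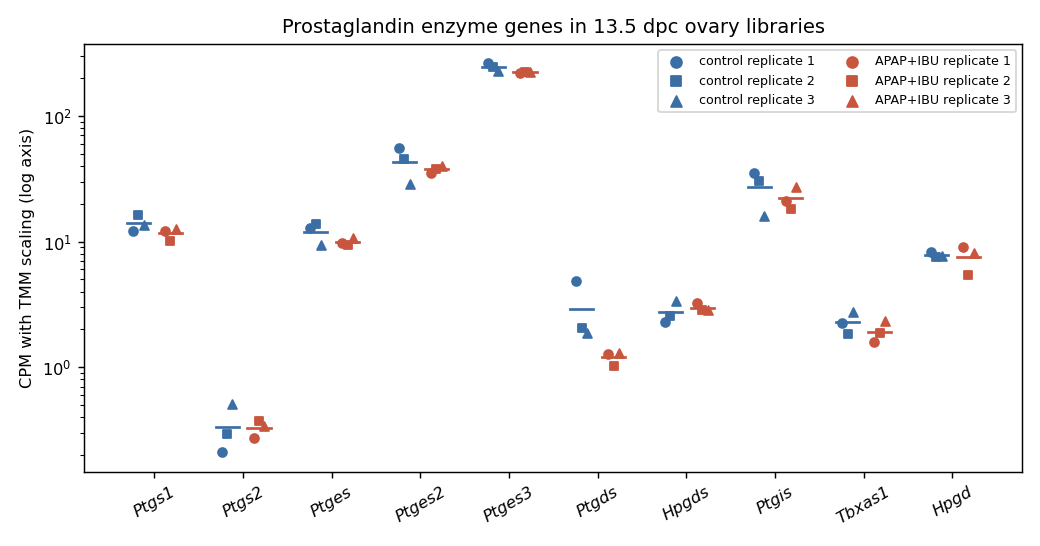
The y axis gives CPM with TMM scaling on a log axis for the 10 genes. Points are libraries, coloured by group and shaped by replicate, and the short lines are group means. Only Ptges3 and Ptgds have all 3 APAP+IBU points below all 3 control points, and control replicate 3 lies apart from control replicates 1 and 2 in Ptges2 (28.7 CPM) and Ptgis (16.1 CPM).

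The gene with the largest fold change of the 10 was a prostaglandin D synthase. Ptgds (ENSMUSG00000015090, chr2:25466709-25470046) encodes the lipocalin-type enzyme, which in the fetal testis is made downstream of SOX9. It had 4.85, 2.04 and 1.87 CPM in the controls (185, 76 and 81 counts) and 1.28, 1.03 and 1.30 CPM in the APAP+IBU libraries (65, 47 and 50 counts). Control replicate 1 was far above the other controls, and every APAP+IBU library was below every control. Ptgds had a log2 fold change of -1.28 (standard error 0.41, 95% interval -2.22 to -0.33). It did not pass the test, with an adjusted p = 0.692 in edgeR, and DESeq2 gave an adjusted p = 0.185. The two-sided exact permutation test of the levels gave p = 0.1, again the smallest possible.

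In the 4 libraries of replicates 1 and 2, Ptgds fell by 1.55 on the log2 scale (standard error 0.44, adjusted p = 0.0397 in edgeR). Control replicate 1 carried much of this difference. Without it the log2 fold change was -0.70 (standard error 0.30, adjusted p = 0.999 in edgeR) among the remaining 5 libraries and -0.80 (standard error 0.37, adjusted p = 0.174 in edgeR) among the remaining 3. The spermatid and sperm genes moved alongside. Their summed level was 148, 44.8 and 41.8 CPM in control replicates 1, 2 and 3. It was 6.29, 2.93 and 3.67 CPM in APAP+IBU replicates 1, 2 and 3. All 12 were lower in every APAP+IBU library than in every control, against 5.92% of all tested genes. Of these 12 genes, 0 passed in edgeR with 6 libraries, where 12 had an unadjusted p under 0.05, against 6.22% of all tested genes. In DESeq2 12 fell, against 215 of all 32761 genes with a p-value. Of 10 fetal testis somatic genes, 9 were tested. The 10 summed to 94.9, 112 and 52.8 CPM in control replicates 1, 2 and 3. They summed to 67.9, 55.7 and 58.7 CPM in APAP+IBU replicates 1, 2 and 3, so control replicate 3 was lowest. The median log2 fold change of the 9 was -0.55 with 6 libraries, where 0 passed in edgeR and in DESeq2. In edgeR 3 of them had an unadjusted p under 0.05, against 6.22% of all tested genes. In replicates 1 and 2 the median was -0.82, and 5 of 9 fell in edgeR, against 12.9% of all tested genes. The part of either list in the Ptgds values was not tested.

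**Figure D3:**
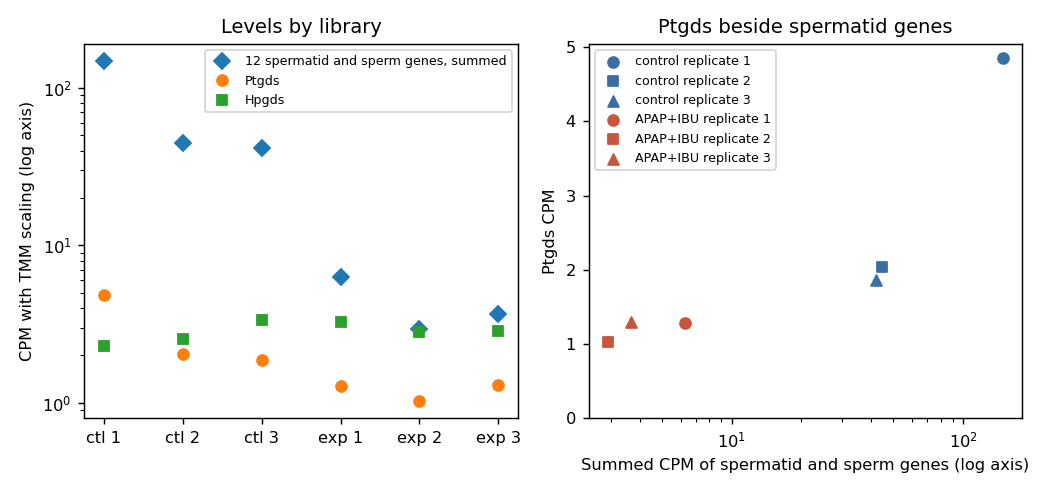
The left panel gives CPM on a log axis for each control (ctl) and APAP+IBU (exp) library, for Ptgds, Hpgds and the sum of 12 spermatid and sperm genes. The right panel sets Ptgds in CPM against that sum on a log axis, 1 point per library. Control replicate 1 has the highest value of both, 4.85 and 148 CPM, and the APAP+IBU libraries have the 3 lowest of both.

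Hpgds (ENSMUSG00000029919, chr6:65117293-65144908), the haematopoietic prostaglandin D synthase that is found in mast cells, macrophages and early gonadal cells, had 2.28, 2.54 and 3.36 CPM in the controls and 3.25, 2.84 and 2.86 CPM in the APAP+IBU libraries. The groups overlapped, and both its lowest and its highest library were controls. Hpgds had a log2 fold change of 0.13 (standard error 0.25, 95% interval -0.44 to 0.70, adjusted p = 0.864 in edgeR), and in replicates 1 and 2 alone it was 0.36 (standard error 0.26, adjusted p = 0.336 in edgeR). The summed level of 8 mast cell genes was 20.96 to 33.4 CPM in the controls and 10.7 to 53.9 CPM in the APAP+IBU libraries. Most of it came from Hdc, the histidine decarboxylase gene (9.35 to 51.3 CPM), followed by the protease gene Cpa3 (1.05 to 2.50 CPM). The other 6, among them the proteases Tpsb2, Tpsab1, Cma1 and Mcpt4 and the receptor gene Fcer1a, were between 0 and 0.482 CPM. The part of this list in the Hpgds values was not tested. Per kilobase, Ptgds exceeded Hpgds by 8.29, 3.12 and 2.16 times in the controls and by 1.54, 1.41 and 1.77 times in the APAP+IBU libraries. With the longest transcript the ratio was 6.235, 2.35 and 1.63 in the controls and 1.155, 1.06 and 1.33 in the APAP+IBU libraries. This ratio did not overlap between the groups, and neither did Ptgds itself. Of all tested genes, 10.7% did not overlap, and the share among ratios of 2 genes was not computed.

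The prostacyclin and thromboxane synthases differed strongly in level. Ptgis (ENSMUSG00000017969, chr2:167191805-167240604), the prostacyclin synthase, had 34.8, 30.5 and 16.1 CPM in the controls and 20.9, 18.3 and 27.0 CPM in the APAP+IBU libraries. Replicate 3 of each group broke the pattern of the other 2, being the lowest control and the highest exposed library, and the groups overlapped. The log2 fold change was -0.30 (standard error 0.29, 95% interval -0.97 to 0.37, adjusted p = 0.751 in edgeR) with 6 libraries. In the 4 libraries of replicates 1 and 2, Ptgis fell by 0.71 on the log2 scale (standard error 0.13, adjusted p = 0.0115 in edgeR), and it still passed the test without any 1 of those 4 libraries. After the correction for length and GC content, it no longer passed, with a log2 fold change of -0.34 and an adjusted p = 0.102 in edgeR. The summed level of 10 endothelial genes was 558.5, 564.3 and 578.6 CPM in the controls and 515.5, 454.7 and 524.9 CPM in the APAP+IBU libraries. Control replicate 3 had the highest sum and the lowest Ptgis level of all libraries. Within the APAP+IBU libraries, the sum and Ptgis had the same order. The part of this list in the Ptgis values was not tested.

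Tbxas1 (ENSMUSG00000029925, chr6:38875404-39084585), the thromboxane synthase of platelets and macrophages, had 2.23, 1.82 and 2.76 CPM in the controls and 1.60, 1.86 and 2.32 CPM in the APAP+IBU libraries. The groups overlapped, and the log2 fold change was -0.24 (standard error 0.28, adjusted p = 0.775 in edgeR). In replicates 1 and 2 it was -0.21 (standard error 0.30, adjusted p = 0.628 in edgeR). It overlaps Hipk2 on the opposite strand, which had 614 to 1772 counts against 68 to 120 counts of Tbxas1, and the strand setting of the counting is not given in the sources used here. The summed level of 12 macrophage genes was 137, 146 and 129 CPM in the controls and 96.8, 94.7 and 137 CPM in the APAP+IBU libraries, and their part in the Tbxas1 values was not tested. Per kilobase, Ptgis exceeded Tbxas1 by 20.6 to 59.3 times, and by 12.6 to 36.3 times with the longest transcript in place of all exons.

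The degrading enzyme gene Hpgd (ENSMUSG00000031613, chr8:56294585-56321043) had 8.24, 7.52 and 7.62 CPM in the controls and 9.11, 5.37 and 8.10 CPM in the APAP+IBU libraries. APAP+IBU libraries were both the highest and the lowest, so the groups overlapped. Hpgd had a log2 fold change of -0.05 (standard error 0.23, 95% interval -0.58 to 0.48, adjusted p = 0.947 in edgeR), and -0.10 in replicates 1 and 2 (standard error 0.27, adjusted p = 0.817 in edgeR).

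With all 6 libraries, 0 of the 10 genes passed an adjusted p of 0.05 in edgeR, 1 (Ptgds) had an unadjusted p under 0.05, and DESeq2 also gave 0. The share of all 20167 tested genes that passed was 0%, and 6.22% had an unadjusted p under 0.05. The log2 fold change was negative for 9 genes and positive for Hpgds, with a median of -0.22 against -0.0047 over all tested genes. The groups did not overlap for 2 of the 10 genes, both lower in APAP+IBU ovaries, where 5.92% of all tested genes were lower without overlap and 4.78% were higher.

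In replicates 1 and 2 alone, 3 of the 10 genes passed in edgeR and all 3 fell: Ptgis, Ptges2 and Ptgds. DESeq2 gave 3 as well, all lower, against 2864 lower of all 31764 genes with a p-value. In edgeR 27.2% of 20633 tested genes passed, 12.9% lower and 14.2% higher. An unadjusted p under 0.05 was found for 4 of the 10 genes and for 41% of all tested genes. The median log2 fold change of the 10 genes was -0.27, against -0.0032 over all tested genes. Without control replicate 1 the count was 1, which was Ptgis.

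**Figure D4:**
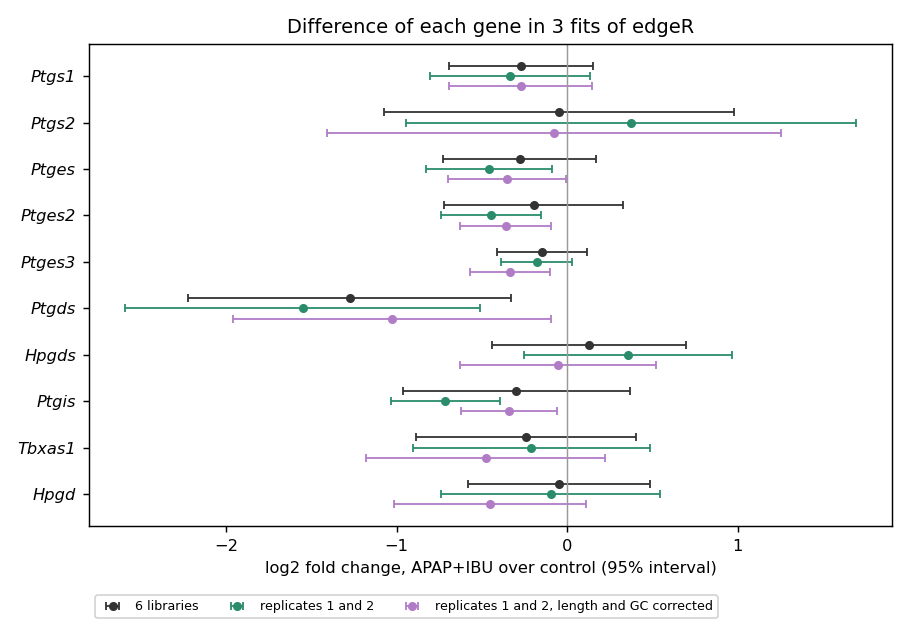
The x axis gives the log2 fold change of APAP+IBU over control with its 95% interval in edgeR, for each gene in 3 fits: 6 libraries, replicates 1 and 2, and replicates 1 and 2 after the correction for length and GC content. Intervals of Ptgds lie below 0 in each fit (-2.22 to -0.33 with 6 libraries), while those of Ptgs2 are the widest.

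Fold changes in replicates 1 and 2 varied with the GC content of the transcript over all genes. The median log2 fold change was 0.44 in the quintile of genes with the lowest GC content, which holds Ptgs2, Ptges3, Hpgds and Hpgd, and -0.37 in the quintile with the highest, which holds Ptgds and Ptgis. Ptges and Ptges2 lie in the quintile between 51.2 and 55.2% GC, whose median was -0.15. After a correction of each library for transcript GC content and gene length, 0 of the 10 genes passed in edgeR, against 13.1% of all tested genes (7.3% lower and 5.83% higher). At an unadjusted p under 0.05, the corrected values gave 5 of the 10 genes and 30.5% of all tested genes. With 6 libraries the correction gave 0 of the 10 genes, and 1 at an unadjusted p under 0.05, against 9.24% of all tested genes. DESeq2 was not run on the corrected values. With replicates 1 and 2 the corrected log2 fold change was -0.34 for Ptgis (adjusted p = 0.102 in edgeR). It was -0.36 for Ptges2 (adjusted p = 0.0751 in edgeR) and -1.03 for Ptgds (adjusted p = 0.131 in edgeR). That of Ptges3 moved from -0.18 to -0.34 (adjusted p = 0.0661 in edgeR).

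**Figure D5:**
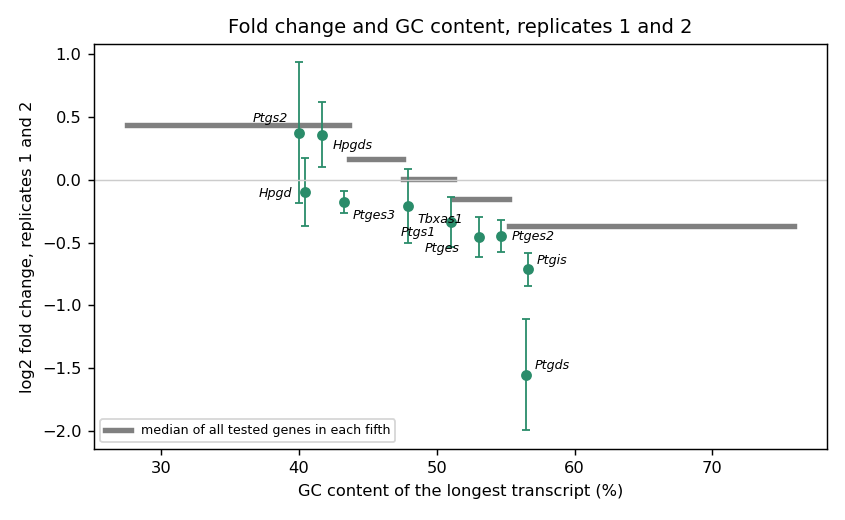
The x axis gives the GC content of each gene's longest transcript in percent and the y axis the log2 fold change with replicates 1 and 2. Points are the 10 genes with their standard errors, and grey bars are the medians of all tested genes in each quintile of GC content, falling from 0.44 to -0.37. All 10 points lie below the bar of their quintile.

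Some genes of the neighbouring steps passed the test in replicates 1 and 2, and none did with 6 libraries in edgeR. Among 12 further prostaglandin reductases, isomerases and synthases, only Ptgr1 had an unadjusted p under 0.05 in edgeR with 6 libraries. The share of all tested genes was 6.22%. After adjustment 0 of the 12 passed in edgeR with 6 libraries, and DESeq2 gave 0. Their median log2 fold change was -0.11 with 6 libraries and -0.20 in replicates 1 and 2, where 1 rose and 5 fell. In that fit 14.2% of all tested genes rose and 12.9% fell. The largest changes among them were a fall of 0.86 on the log2 scale for Fam213b, a prostaglandin F synthase (adjusted p = 0.0134 in edgeR), of 0.69 for Cbr3 (adjusted p = 0.0437 in edgeR), of 0.62 for Akr1b3 (adjusted p = 0.00675 in edgeR) and of 0.59 for Cbr1 (adjusted p = 0.0247 in edgeR), the last 3 being carbonyl or aldo-keto reductases. After the length and GC correction, 1 rose and 3 fell, against 5.83% and 7.3% of all tested genes, and Fam213b (-0.22) and Cbr3 (-0.12) no longer passed.

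Of 15 genes of arachidonate release, 13 were tested, and with 6 libraries only Pla2g4b had an unadjusted p under 0.05 in edgeR. The share of all tested genes was 6.22%. After adjustment 0 of the 13 passed in edgeR with 6 libraries, and DESeq2 gave 0. Their median log2 fold change was -0.03 with 6 libraries and -0.12 in replicates 1 and 2, where 3 rose and 2 fell, against 14.2% and 12.9% of all tested genes. Those that rose were cytosolic phospholipases A2: Pla2g4b by 1.40 on the log2 scale (adjusted p = 0.00778 in edgeR), Pla2g4c by 1.11 (adjusted p = 0.0146 in edgeR) and Pla2g4e by 0.67 (adjusted p = 0.0345 in edgeR). Pla2g4b had 3.88, 5.22 and 6.86 CPM in the controls and 13.1, 10.6 and 6.79 CPM in the APAP+IBU libraries, so both replicate 3 libraries lay between the other controls and the other exposed libraries. Pla2g15, a lysosomal phospholipase, fell by 0.51 (adjusted p = 0.0165 in edgeR). After the length and GC correction, Pla2g4b (1.49) and Pla2g4c (0.90) still rose and Pla2g12a (-0.62) still fell. Over all tested genes, 5.83% rose and 7.3% fell after it. Pla2g4e (0.60, adjusted p = 0.0574 in edgeR) and Pla2g15 (-0.27, adjusted p = 0.119 in edgeR) no longer passed. Of 12 prostanoid receptors and carriers, 10 were tested. In edgeR 0 passed with 6 libraries, with 0 at an unadjusted p under 0.05, and DESeq2 also gave 0. Their median log2 fold change was -0.18 with 6 libraries and -0.23 in replicates 1 and 2, where 1 fell, against 12.9% of all tested genes. This was Tbxa2r, the thromboxane receptor, with a fall of 1.41 (adjusted p = 0.00695 in edgeR) that was 0.74 after the correction (adjusted p = 0.0485 in edgeR).

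The 3 genes of the 10 with the largest spread of log2 CPM over the 6 libraries were Ptgds, Ptgis and Ptgs2. Among 16062 genes with a mean of at least 1 CPM, the levels most like those of Ptgds over the 6 libraries were those of Tcp11 (Pearson's r = 0.996), Tsr2 (0.99) and Btbd1 (0.988). Tcp11, a testis-expressed gene, had 3.83, 1.96 and 1.77 CPM in the controls and 1.22, 0.961 and 1.20 CPM in the APAP+IBU libraries. Tsr2 lay at 51.2 to 65.2 CPM and Btbd1 at 63.2 to 78.3 CPM over the 6 libraries. An r above 0.9 with Ptgds was found for 270 genes. Ptgis was most like Rab24, Naa10 and Arhgap45 (0.997 to 0.998), and 1749 genes had an r above 0.9 with it. Ptgs2 was most like Dtx3l (0.983), Kctd21 (0.978) and Igf2r (0.977), and 163 genes had an r above 0.9 with it. Ptgs2 had only 8 to 22 counts per library, so its spread and its correlations include a wide counting error. These correlations are descriptions over 6 libraries that share depth and make-up, with no test.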

How the data were processed

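Polyadenylated RNA of 13.5 dpc female gonad pools was sequenced in 3 control and 3 APAP+IBU libraries. The authors prepared stranded libraries, mapped reads to mm10 with TopHat2 (2.0.14) and Bowtie2 (2.1.0), counted them per Ensembl gene with HTSeq (0.6.1) and deposited raw counts with no normalisation. The strand setting of the counting is not given in the sources used here. Groups and replicate numbers came from the sample labels. Where separate pools are the replicates, p-values measure the spread between pools.

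From the deposited counts, edgeR 4.0.16 (R 4.3.3) was run on all genes after its filter on low counts, with TMM scaling, the quasi-likelihood test and Benjamini-Hochberg adjustment. A gene passed at an adjusted p under 0.05. Log2 CPM used a prior count of 1. Exact permutation tests compared 3 against 3 libraries and cannot go below p = 0.1. Intervals of single counts are exact Poisson intervals and cover counting error only. Positions, exon lengths and GC were taken from GENCODE M21 (GRCm38), a later annotation than that of the authors, and 20103 tested genes had both. The length and GC correction fitted both by loess (span 0.3), library by library. Promoters came from RefSeq, GRCm38.p6. The scripts were tested on simulated counts. Alternatives were DESeq2 1.42.0 without shrinkage, other scalings and filters, the replicate number as a block, the correction and leaving out each library.

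The 10 genes and all lists were chosen with earlier results of these data known. Named from the pathway lists were the genes that passed in either fit, at most 4 per list by size of change. Ptgr1, Pla2g12a and the marker genes given with values were named after their values had been seen. Leaving out single libraries from the 4-library fit was added after the data had been seen.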

Additional observations from a re-analysis of the deposited data

How the results depend on the processing

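The count of the 10 genes that passed with 6 libraries was 0 under every scaling, filter and test tried and without any 1 library (range 0 to 0), and 3 with replicates 1 and 2 only. The filter of 10 counts in every library left 9 of the 10 genes. The count in replicates 1 and 2 was 3 under the other scalings, filters and DESeq2, 0 after the length and GC correction and also 0 after that correction with the replicate block. Without 1 library it was 1 to 3, where 1 was reached without control replicate 1. The number of genes without overlap of the groups was 2 under every scaling and prior count tried. Over all genes, the count with 6 libraries was 0 in edgeR, 236 in DESeq2, 120 with all genes of at least 1 count, and 0 to 1064 without 1 library, the highest without control replicate 3. In replicates 1 and 2, the 5607 genes became 2709 after the correction, and 3554 to 7299 without 1 library.

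Some fold changes changed sign, and none of these passed a test. Without 1 of the 6 libraries, the log2 fold change ran from -0.30 to 0.38 for Ptgs2, positive without control replicate 3 and without APAP+IBU replicate 1 (0.057). It ran from -0.42 to 0.025 for Ptges2, positive without control replicate 1, and from -0.22 to 0.13 for Hpgd, positive without APAP+IBU replicate 2. Ptgs2 had 0.37 with replicates 1 and 2 only. In replicates 1 and 2, Hpgd ran from -0.54 to 0.23 without 1 library, positive without APAP+IBU replicate 2. The length and GC correction gave -0.0545 for Hpgds with 6 libraries. In replicates 1 and 2 it gave -0.077 for Ptgs2 and -0.055 for Hpgds, against 0.37 and 0.36 without the correction. The cause was not tested.

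Deviations from the group mean were compared between libraries with the same number. Over all tested genes their correlations were -0.0695, -0.0151 and -0.044 for numbers 1, 2 and 3. With 3 libraries per group these values cannot show whether the number pairs the pools, and both replicate 3 libraries were high in liver genes. With the replicate block, 0 of the 10 genes passed with 6 libraries and 2 in replicates 1 and 2, where Ptges2 had -0.44 (adjusted p = 0.0725 in edgeR), and over all genes 2 and 3817 passed. The block gave 0.026 for Ptgs2 with 6 libraries. The replicate block with the correction gave -0.055 for Hpgds with 6 libraries, -0.0745 for Ptgs2 and -0.056 for Hpgds in replicates 1 and 2, and over all genes 34 and 2292 passed.

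Depth limits Ptgs2 most, at 8 to 22 counts per library. Where an arm held 1 library, that library was assumed to vary like the other group.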
